A study of Sus scrofa with 8 samples.

Results

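Transcripts of the cathepsins CTSA, CTSB, CTSC, CTSD, CTSH, CTSL, CTSS and CTSZ and of the cystatins CSTB and CST3 were followed in the liver of pigs before and after a steatotic diet. These 10 genes were taken by name from the 18103 genes and new transcripts of the expression table, with earlier results of these data known. All 10 passed the filter on low values, which required 0.3 FPKM (fragments scaled for transcript length and library size) or more in at least 4 pools and left 13175 genes to test.

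The pigs were males of a Landrace x Large White cross. Hepatic RNA was sequenced in 8 libraries, each a pool of 2 pigs. The 4 pools called initial state came from healthy animals of 4 months, whose liver was taken by biopsy during laparotomy. The 4 pools called steatosis came from pigs of 6 months, after 2 months on a diet high in saturated fat, fructose, cholesterol and cholate and low in methionine and choline, and their liver was taken after euthanasia. According to the study's methods these were the same animals. Diet, age and way of sampling therefore cannot be told apart, and pigs of the same age on a control diet were not analysed here. The SD given is between pools of 2 pigs, not between pigs. How many reads lie behind a value was not analysed here, so no counting error is given.

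Cathepsins are proteases of endosomes and lysosomes that are made as inactive precursors, carried to these organelles by sorting receptors and activated there by cleavage. Most are papain-like cysteine proteases, whereas cathepsin D is an aspartic protease and cathepsin A a serine carboxypeptidase. Cystatins are tight but reversible inhibitors of the papain-like cysteine proteases, and they do not block cathepsins D and A. Hepatocytes and Kupffer cells, the resident macrophages of the liver, both hold lysosomes rich in cathepsins.

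In steatosis 6 of the 10 genes rose and 0 fell, at the limits of an adjusted p under 0.01 from limma and a log2 fold change beyond 1. Those that rose were CTSD, CTSH, CSTB, CTSZ, CTSS and CTSA, in the order of their estimates. With the same limits 6.01% of all tested genes were higher and 0.334% lower. The median log2 fold change was 1.22 over the 10 genes and 0.25 over all tested genes, and estimates above 0 were found in 10 of the 10 genes and in 78.7% of all tested genes. In 9 of the 10 genes every steatosis pool lay above every initial pool, which was so for 29.6% of all tested genes (2.53% lay wholly below), and CTSC was the exception. In bulk liver, more cells of a type and more RNA per cell cannot be told apart.

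**Figure D1:**
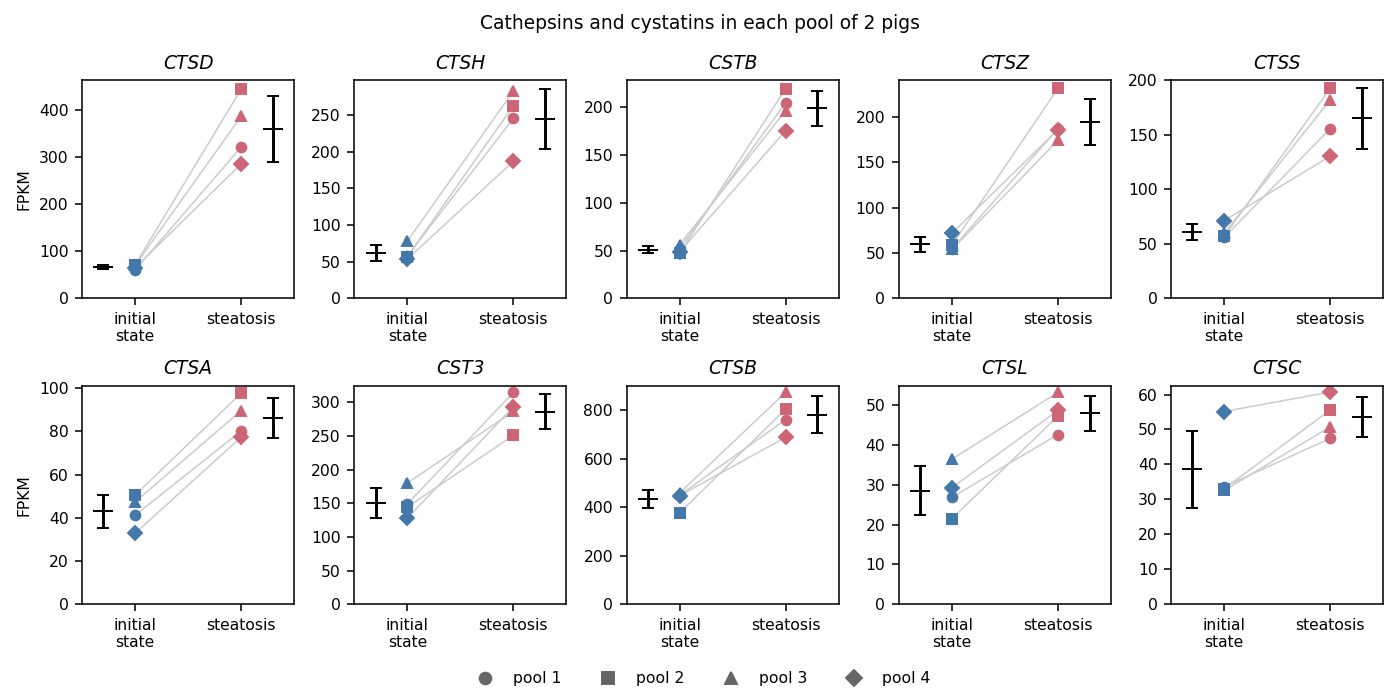
FPKM of each of the 10 genes (linear axes starting at 0) in the initial state and in steatosis, with a marker shape for each pool number grey lines joining pools of the same number and black bars for the mean and SD of 4 pools. CTSD climbed from at most 71.4 to at least 286 FPKM, and CTSC is the gene in which a pool of the initial state, pool 4 at 55.1 FPKM, reached into the range of steatosis.

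Cathepsin D, the main aspartic protease of lysosomes, had the largest log2 fold change of the 10 genes. CTSD (gene 494568, assembly Sscrofa11.1, chr2:1188548-1197642) was at 60.4, 71.4, 70.3 and 65.2 FPKM in initial pools 1 to 4 and at 322, 445, 387 and 286 FPKM in steatosis pools 1 to 4. The lowest steatosis pool was 215 FPKM above the highest initial pool. The mean went from 66.8 ± 5.06 to 360 ± 70.3 FPKM (SD, n = 4 pools per group), and the log2 fold change was 2.41 (SE 0.14, 95% interval 2.10 to 2.72, limma adjusted p = 8.50e-06), which is 5.31-fold. Among the 13175 tested genes, 80 had a larger log2 fold change. By level, CTSD moved from rank 801 to rank 231.

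The papain-like cathepsins with exopeptidase activity were CTSH, CTSZ and CTSC, besides CTSB, which acts as both endopeptidase and exopeptidase. Cathepsin H is an aminopeptidase, also known for processing surfactant protein in the lung. CTSH (gene 396969, chr7:48084882-48106072) was at 57.9, 56.8, 78.1 and 53.6 FPKM in the initial pools and at 245, 262, 282 and 187 FPKM in the steatosis pools. The groups did not overlap and were 109 FPKM apart. CTSH rose 3.96-fold, with means of 61.6 ± 11.1 and 244 ± 41.2 FPKM and a log2 fold change of 1.98 (SE 0.16, limma adjusted p = 4.66e-05).

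Cathepsin Z, also called cathepsin X, is a carboxypeptidase found mainly in monocytes and macrophages. CTSZ (gene 100141405, chr17:59141497-59149377) was at 54.65, 59.0, 54.0 and 71.9 FPKM in the initial pools and at 187, 231, 174 and 186 FPKM in the steatosis pools. Pool 4 was the highest of the initial state and pool 2 the highest of steatosis, with no overlap. CTSZ rose 3.25-fold. Means were 59.9 ± 8.29 and 195 ± 25.2 FPKM, and the log2 fold change was 1.70 (SE 0.12, limma adjusted p = 2.99e-05).

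Cathepsin C, or dipeptidyl peptidase I, activates the serine proteases of neutrophils, mast cells and cytotoxic lymphocytes. CTSC (gene 100522387, chr9:21726628-21761796) was at 33.6, 33.0, 32.6 and 55.1 FPKM in the initial pools and at 47.5, 55.6, 50.8 and 60.7 FPKM in the steatosis pools. Initial pool 4 lay above 2 of the 4 steatosis pools, while the other 3 initial pools lay between 32.6 and 33.6 FPKM. CTSC did not pass the test, with means of 38.6 ± 11.0 and 53.6 ± 5.79 FPKM and a log2 fold change of 0.51 (SE 0.17, 95% interval 0.12 to 0.89, limma adjusted p = 0.0505). Without initial pool 4 the log2 fold change was 0.69 (limma adjusted p = 0.00206), which stayed under the limit on size.

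The 3 endopeptidases of the papain-like group gave different results. Cathepsin S is the protease of antigen-presenting cells that cuts the invariant chain from class II molecules. CTSS (gene 100153090, chr4:98415273-98442952) was at 56.1, 57.1, 59.95 and 71.4 FPKM in the initial pools and at 156, 193, 182 and 131 FPKM in the steatosis pools. Pool 4 was the highest of the initial state and the lowest of steatosis, and the groups did not overlap. CTSS rose 2.68-fold. The mean was 61.1 ± 7.04 FPKM before and 165 ± 27.9 FPKM after the diet, and the log2 fold change was 1.42 (SE 0.14, limma adjusted p = 0.000123).

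Cathepsin B, abundant in hepatocyte lysosomes, was the most abundant of the 10 genes in both groups. CTSB (gene 100037961, chr14:15014139-15035081) was at 450.3, 377, 459 and 448 FPKM in the initial pools and at 761, 805, 875 and 689 FPKM in the steatosis pools. The groups were separated by 230 FPKM. Its difference of means, 349 FPKM, was the largest of the 10 genes in FPKM, but the log2 fold change of 0.85 (SE 0.11, 95% interval 0.61 to 1.09) stayed under the limit of 1, with a limma adjusted p of 0.000534. Means were 434 ± 38.0 and 782 ± 78.0 FPKM. By level, CTSB ranked 174 among the tested genes in the initial state and 96 in steatosis.

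Cathepsin L is a broad endopeptidase that degrades proteins delivered by endocytosis and autophagy. CTSL (gene 100515919, chr10:27668523-27674705) was at 26.8, 21.5, 36.4 and 29.3 FPKM in the initial pools and at 42.6, 47.2, 53.1 and 48.6 FPKM in the steatosis pools. The highest initial pool was 6.17 FPKM below the lowest steatosis pool. CTSL was not called, with means of 28.5 ± 6.19 and 47.9 ± 4.34 FPKM and a log2 fold change of 0.77 (SE 0.15, 95% interval 0.43 to 1.10, limma adjusted p = 0.00503).

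The reading of CTSL depends on the annotation. On the same chromosome, RefSeq lists CTSV (gene 396926, chr10:25202360-25208058), a close relative of CTSL that carries the name CTSL among its synonyms. CTSV was at 374, 411, 474 and 508 FPKM in the initial pools and at 521, 557, 499 and 631 FPKM in the steatosis pools. Its mean was 442 ± 60.5 and 552 ± 57.8 FPKM. In the initial state this was slightly above the mean of CTSB, with overlapping pools, and in steatosis it was second to CTSB among the measured cathepsins. Its log2 fold change was 0.33 (SE 0.12, limma adjusted p = 0.0695), below the threshold, and initial pool 4 lay above steatosis pool 3. How RSEM divided reads between CTSL and CTSV was not tested, nor was which entry stands for pig cathepsin L. The level and the change of CTSL are therefore uncertain. CTSV is not part of the sums and shares of the 8 cathepsins given below. The ratio of CTSL to CTSV was 0.0646 ± 0.0116 in the initial state and 0.0875 ± 0.0130 in steatosis, without overlap. How many of all tested genes differed so relative to CTSV was not computed.

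Cathepsin A is a serine carboxypeptidase that also shields the lysosomal sialidase NEU1 and the beta-galactosidase GLB1 from degradation. CTSA (gene 100156798, chr17:48082480-48089971) was at 41.2, 50.5, 47.4 and 32.85 FPKM in the initial pools and at 80.2, 97.7, 89.6 and 77.3 FPKM in the steatosis pools. The groups were separated by 26.8 FPKM. CTSA rose 2.02-fold, with means of 43.0 ± 7.79 and 86.2 ± 9.27 FPKM and a log2 fold change of 1.01 (SE 0.14, 95% interval 0.70 to 1.33, limma adjusted p = 0.000871). This estimate lay just past the limit on size and was under it without initial pool 4 (0.89), without steatosis pool 2 (0.95), without steatosis pool 3 (0.99) and when libraries were scaled by their median ratio (0.74) or upper quartile (0.78).

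Of the 3 partners of cathepsin A in the lysosomal complex, 1 rose and 0 fell. GLB1 was at 2.94 ± 0.338 FPKM in the initial state and 9.48 ± 2.14 FPKM in steatosis and rose with a log2 fold change of 1.64 (SE 0.16, limma adjusted p = 0.000148). GALNS, a sulfatase, had a log2 fold change of 0.87 (limma adjusted p = 0.000784), and NEU1 had 0.33 (limma adjusted p = 0.0361), neither past both limits. Accordingly the FPKM ratio of CTSA to NEU1 was 5.31 ± 0.878 in the initial state and 8.44 ± 0.715 in steatosis, and that of CTSA to GLB1 was 14.6 ± 1.70 and 9.25 ± 1.02. Both ratios differed without overlap, in opposite directions. How many of all tested genes differed so relative to NEU1 or GLB1 was not computed.

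Cystatin B, the intracellular inhibitor, or stefin B, had the smallest adjusted p of the 10 genes. CSTB (gene 100038020, chr13:206706060-206710598) was at 52.2, 47.3, 56.3 and 48.9 FPKM in the initial pools and at 205, 219.6, 196 and 175.5 FPKM in the steatosis pools. Its groups were far apart, with little spread within each. CSTB rose 3.88-fold, with means of 51.2 ± 3.96 and 199 ± 18.4 FPKM and a log2 fold change of 1.96 (SE 0.10, 95% interval 1.74 to 2.17, limma adjusted p = 4.41e-06).

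Cystatin C is the secreted inhibitor, known in plasma as a marker of kidney function. CST3 (gene 733672, chr17:30471056-30474486) was at 149, 145, 180.3 and 128 FPKM in the initial pools and at 315, 251, 287 and 293 FPKM in the steatosis pools. The lowest steatosis pool was 70.8 FPKM above the highest initial pool. The log2 fold change was 0.93 (SE 0.12, 95% interval 0.67 to 1.20, limma adjusted p = 0.000562), under the limit on size, and it was 1.02 and passed without initial pool 3. Means were 151 ± 21.8 and 286 ± 26.5 FPKM.

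A single-gene comparison of mean FPKM by a two-sided exact permutation test gave p = 0.0286, the smallest that 4 pools against 4 allow, for 9 of the 10 genes and p = 0.0857 for CTSC. At an adjusted p under 0.01 and any size of change, 9 of the 10 genes were higher, against 12.9% of all tested genes. The median change of all genes, 0.25, depends on how libraries are scaled. It was -0.01 with scaling by the median ratio, where 5 of the 10 genes were higher and 0 lower, against 3.12% and 0.63% of all tested genes. Scaling by the upper quartile gave 5 and 0 as well, against 3.33% and 0.554%, and so did a pseudocount of 1, against 3% and 0.296%. Under the median ratio the log2 fold changes of CTSD, CSTB and CTSH were 2.14, 1.68 and 1.71, and those of CTSB and CTSC 0.58 and 0.23. With limma's treat test, which asks whether a change exceeds a log2 fold change of 1, CTSD, CSTB and CTSH passed an adjusted p of 0.01 (0.000636, 0.000775 and 0.00932), so 3 of the 10 genes were higher and 0 lower, against 0.516% and 0.00759% of all tested genes.

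**Figure D2:**
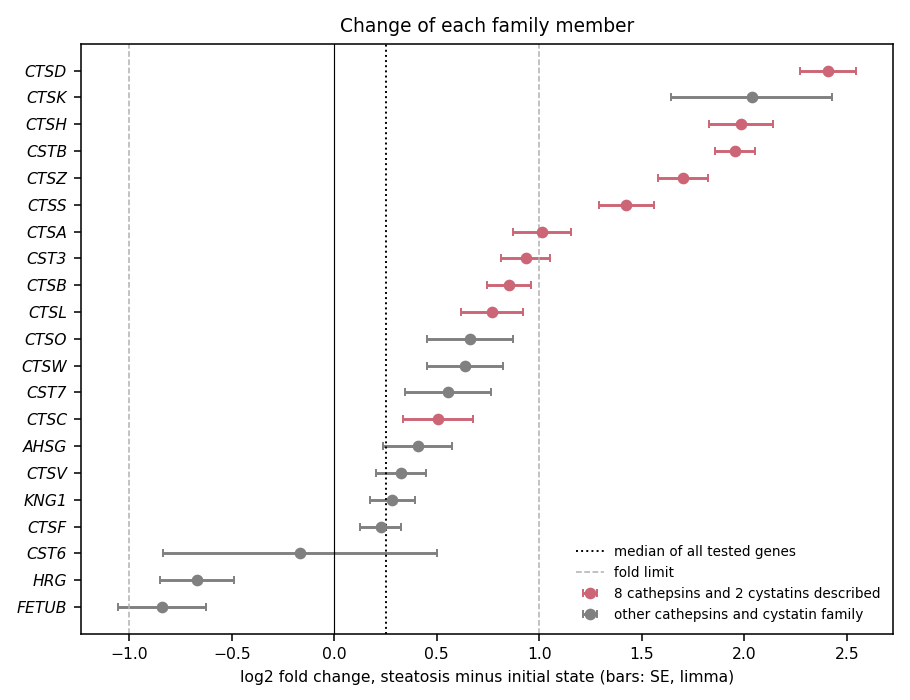
Log2 fold change of steatosis over initial state for the 10 genes and the other measured cathepsins and cystatin family proteins, with bars of 1 SE from limma, dashed lines at the limits of 1 and -1, and a dotted line at the median of all tested genes. CTSD is farthest to the right at 2.41, and HRG and FETUB, at -0.67 and -0.84, lie left of 0.

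Of the 7 other cathepsins looked for, 5 were listed, of which 1 rose and 0 fell, with a median log2 fold change of 0.64. CTSK, the collagen-degrading cathepsin of osteoclasts, was at 3.88 ± 2.54 and 14.9 ± 4.94 FPKM and rose with a log2 fold change of 2.04 (SE 0.39, limma adjusted p = 0.00468). That call was lost with scaling by the upper quartile or the median ratio and without any of initial pools 1, 2 or 3 or steatosis pools 1, 3 or 4. CTSW, a cathepsin of cytotoxic lymphocytes, had a log2 fold change of 0.64 (limma adjusted p = 0.0290), and CTSO, present at 1.46 FPKM in the initial state, had 0.66 (limma adjusted p = 0.0397). CTSF, another lysosomal cysteine protease, had 0.23 (limma adjusted p = 0.113). CTSE and CTSG were not found under these symbols.

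Among 10 further cystatin family proteins 6 were listed, and 0 rose and 0 fell, with a median log2 fold change of 0.06. Most of their FPKM came from secreted plasma proteins made by hepatocytes, whose cystatin-like domains mostly serve other ends. AHSG, or fetuin-A, had a log2 fold change of 0.41 (limma adjusted p = 0.0937) and KNG1, the kininogen that does inhibit cysteine proteases, had 0.28 (limma adjusted p = 0.0812). HRG was at 1888 ± 496 and 1163 ± 131 FPKM, with every steatosis pool below every initial pool, a log2 fold change of -0.67 and a limma adjusted p of 0.0214. FETUB, or fetuin-B, had -0.84 (limma adjusted p = 0.0170). Without initial pool 2 it had -1.03 (limma adjusted p = 0.00499) and passed, so that 1 gene of this list was lower. Of the rest, the 2 genes of low level, CST7 and CST6, had 0.55 and -0.17 (limma adjusted p = 0.0731 and 0.870).

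FPKM is per length, so levels could be ordered between genes within a group. In the initial state CTSB came first and CST3 second, each apart from the next gene. Below them CTSD, CTSH, CTSS, CTSZ, CSTB, CTSA, CTSC and CTSL followed by mean FPKM, from 66.8 to 28.5, and no neighbours in that order were free of overlap. In steatosis CTSB was again apart from the rest, and CTSD, CST3, CTSH, CSTB, CTSZ and CTSS, from 360 to 165 FPKM, overlapped each with the next. CTSA, at 86.2 FPKM, stood apart from CTSS above it and from CTSC below it, while CTSC and CTSL overlapped. Thus the 4 cathepsins and CSTB that were within 51.2 to 66.8 FPKM on average in the initial state spread over 165 to 360 FPKM in steatosis.

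The make-up of the cathepsin transcripts differed as well. Added together, the 8 cathepsins came to 793 ± 51.0 FPKM in the initial state (726 to 838) and 1934 ± 222 FPKM in steatosis (1665 to 2137), a ratio of 2.44. As a share of the summed FPKM of the library this was 0.150% and 0.369%. CTSB made up 57.7, 51.9, 54.8 and 54.2% of the 8 cathepsins in the initial pools and 41.3, 37.7, 41.8 and 41.4% in the steatosis pools. CTSD made up 7.73, 9.83, 8.40 and 7.88% in the initial pools and 17.5, 20.8, 18.5 and 17.2% in the steatosis pools. The shares of both genes were separated between the groups, downward for CTSB and upward for CTSD.

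CTSH also took a larger share, 7.76 ± 1.18% and 12.6 ± 1.05%, without overlap. The shares of CTSZ, CTSS and CTSA overlapped between groups, and those of CTSC and CTSL were smaller in steatosis, at 2.81% and 2.50% against 4.85% and 3.57%. Since the sum itself was 2.44 times as high, a smaller share is usual here. Relative to this sum 70.9% of all tested genes were lower and 1.07% higher without overlap. With all 13 measured cathepsins in the sum, whose total was 1291 ± 105 and 2568 ± 183 FPKM, the share of CTSB was 33.6% and 30.5% and overlapped, as did those of CTSA, CTSC and CTSL. Those of CTSD, at 5.20% and 13.9%, and of CTSH, CTSS and CTSZ were higher in steatosis without overlap. The share of all tested genes that differed relative to this sum of 13 was not computed.

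**Figure D3:**
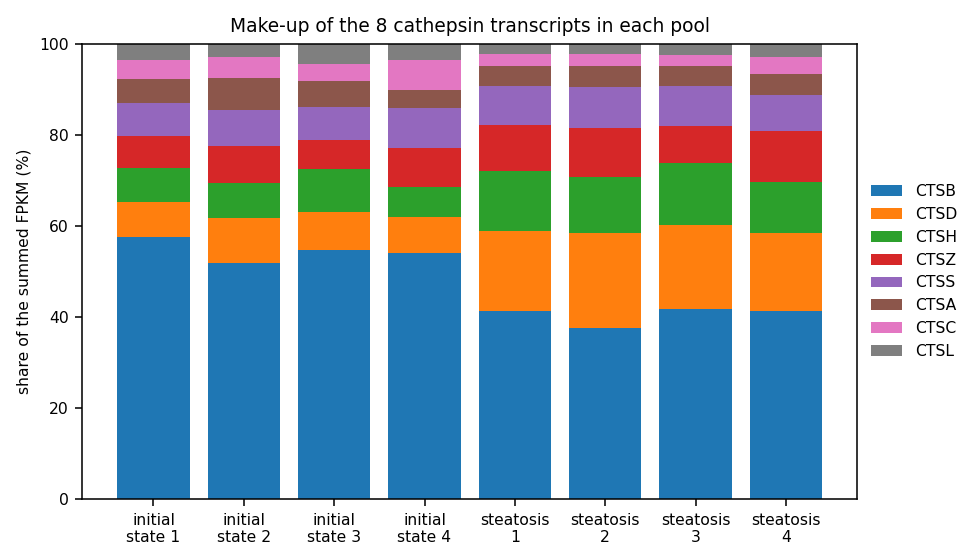
Stacked bars of the share (%) of each of the 8 cathepsins in their summed FPKM, for the 4 initial pools and the 4 steatosis pools. CTSB fills 51.9 to 57.7% of the initial bars and 37.7 to 41.8% of the steatosis bars, while CTSD goes from at most 9.83% to at least 17.2%.

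Ratios within a pool do not depend on how libraries are scaled. Relative to CTSB, 5 of the other 9 genes were higher in steatosis without overlap, and 0 were lower, against 2.54% and 46.1% of all tested genes, and 4 overlapped. These 5 were CTSD, with a ratio of 0.156 ± 0.0238 and 0.458 ± 0.0637, CTSH, CTSS, CTSZ and CSTB. CTSA, CTSC, CTSL and CST3 kept ratios to CTSB that overlapped between groups. The same 3 cathepsins CTSD, CTSH and CTSZ were higher relative to CST3 and 0 lower, against 2.27% and 56.7% of all tested genes, and the ratio of CTSD to CST3 was 0.449 ± 0.0607 and 1.28 ± 0.368.

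Relative to the intracellular inhibitor CSTB most of the genes were lower, which was so for most of all tested genes as well. The ratio of CTSB to CSTB was 8.63, 7.97, 8.16 and 9.17 in the initial pools and 3.72, 3.67, 4.45 and 3.92 in the steatosis pools. Likewise CTSS, CTSA, CTSC, CTSL and CST3 were lower relative to CSTB in steatosis without overlap. Thus 6 of 9 genes were lower, a smaller share than the 89.4% of all tested genes. A lower ratio to CSTB is therefore not read as a trait of these genes. CTSD, which cystatins do not inhibit, was the only one of the 9 that was higher, with 1.16, 1.51, 1.25 and 1.33 in the initial pools and 1.57, 2.02, 1.97 and 1.63 in the steatosis pools. Only 0.41% of all tested genes were higher relative to CSTB. CTSH, at 1.20 ± 0.134 and 1.22 ± 0.156, and CTSZ, at 1.18 ± 0.227 and 0.979 ± 0.0910, overlapped between groups. As a sum, both cystatins came to 202 ± 25.3 and 486 ± 23.5 FPKM, a ratio of 2.41. It was 2.44 for the 8 cathepsins and 1.99 for all 13 measured. Both cathepsin sums include CTSD and CTSA, which cystatins do not inhibit, so they are not sums of the proteases that cystatins block.

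**Figure D4:**
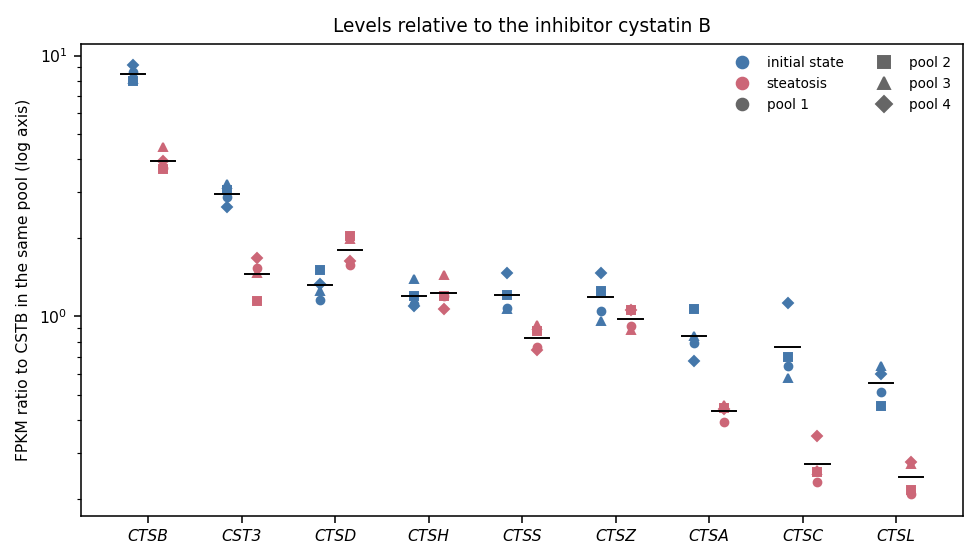
FPKM of each of the other 9 genes divided by that of CSTB in the same pool (log axis), for the initial state and steatosis, with a marker shape for each pool number. The points of CTSB sit at 7.97 to 9.17 in the initial state and at 3.67 to 4.45 in steatosis, whereas those of CTSD are higher in steatosis, at 1.57 to 2.02.

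Pools with the same number were taken as pairs, and all 10 genes were higher in steatosis in 4 of 4 pairs, as were 44.1% of all tested genes. The log2 ratio of CTSD was 2.41, 2.64, 2.46 and 2.13 in pairs 1 to 4. That of CSTB was 1.97, 2.21, 1.80 and 1.84, and that of CTSS was 1.47, 1.75, 1.60 and 0.87. For CTSC the pairs gave 0.50, 0.75, 0.64 and 0.14. Pair 2 held the largest ratio in 8 of the 10 genes and pair 4 the smallest in 6 of them. The exceptions at the top were CTSA and CST3, whose largest ratios, 1.23 and 1.19, came from pair 4. Steatosis pool 4 held the lowest steatosis value of 6 genes. How often these pairs and pools were highest or lowest over all tested genes was not computed. These counts are therefore not read as a trait of the 10 genes. A fit that took the pool number as a block gave the same counts, 6 genes higher and 0 lower.

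Proteins that sort or mature cathepsins or other lysosomal proteins were read from a list of 15 genes. All were tested, 3 rose and 0 fell, with a median log2 fold change of 0.72. PSAP, the precursor of the saposins and a binding partner of procathepsin D, was at 108, 110.05, 116 and 123 FPKM in the initial pools and at 327, 357, 355 and 305 FPKM in the steatosis pools. It rose with a log2 fold change of 1.56 (SE 0.09, limma adjusted p = 8.44e-06). SCARB2, the receptor that carries glucocerebrosidase to lysosomes, rose with 1.04 (SE 0.12, limma adjusted p = 0.000404). The third, GGA2, an adaptor for mannose phosphate receptors that is named because it passed the test, had 1.12 (limma adjusted p = 0.000135). LGMN, or legumain, which cleaves several cathepsins to their double-chain forms, was at 257 ± 61.0 and 492 ± 96.3 FPKM, with a log2 fold change of 0.95 (limma adjusted p = 0.00581), and LRP1, an endocytic receptor, had 0.72 (limma adjusted p = 0.00953). The count was 1 with scaling by the median ratio or the upper quartile, 5 without initial pool 2 and 6 without steatosis pool 4.

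The TFEB family and its regulators, which control transcription of lysosomal genes, held 9 tested genes with a median log2 fold change of 0.57, of which 1 rose and 0 fell. TFEC, named because it passed, was at 0.797 ± 0.175 and 1.85 ± 0.271 FPKM with a log2 fold change of 1.13 (limma adjusted p = 0.00206), and this call was lost with scaling by the median ratio or upper quartile and with a pseudocount of 1. Without initial pool 1 the count was 2, with MITF, another member of the family, at 1.08 (limma adjusted p = 0.00626). TFEB itself was at 5.53 ± 0.640 and 7.88 ± 0.531 FPKM, a log2 fold change of 0.51 (limma adjusted p = 0.0097), and TFE3, FLCN and MCOLN1 had 0.46, 0.57 and 0.46, none past both limits. These are transcript levels, and TFEB is regulated largely by its location in the cell.

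Class II antigen presentation, which uses cathepsins S and L, was covered by 10 genes, of which 3 rose and 0 fell, with a median log2 fold change of 0.98. CD74, the invariant chain cut by cathepsin S, was at 193, 203, 238 and 162 FPKM in the initial pools and at 424, 356, 315 and 477 FPKM in the steatosis pools, with a log2 fold change of 0.97 (SE 0.15, limma adjusted p = 0.00176), just under the limit. SLA-DRA, a class II chain, rose with 1.03 (limma adjusted p = 0.00257), and SLA-DQA1 and SLA-DRB1 had 0.98 and 0.93 (limma adjusted p = 0.00129 and 0.0238). The other genes that rose, named for that reason, were IFI30, a lysosomal thiol reductase, with 1.69, and SLA-DMB, a peptide exchange chain, with 1.44. Steatosis pool 3 had the lowest CD74 and SLA-DRA of its group, and without it the count was 7. Without steatosis pool 2 it was 5.

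Proteases activated by cathepsin C, listed with other granule proteins such as MPO, were at low level. Of 9 gene entries 5 were tested, and 0 rose and 0 fell, with a median log2 fold change of 0.28. GZMA, GZMB, GZMK and GZMH, granzymes of cytotoxic lymphocytes, had log2 fold changes of 0.28, 0.07, -0.11 and 0.68. A further entry under the symbol GZMA had 0.33. Of the untested genes, the neutrophil genes MPO and AZU1, named after their values were seen, had every steatosis pool above every initial pool at no more than 0.26 and 0.64 FPKM in any pool. With no filter on low values MPO passed with a log2 fold change of 1.30 (limma adjusted p = 0.00168). Beyond the cystatins, 10 serpins and other protease inhibitors were tested, of which 2 rose and 0 fell, with a median log2 fold change of 0.65. SERPINA1, SERPINA3-2 and A2M, abundant inhibitors that hepatocytes secrete, had -0.31, -0.16 and 0.26, and SERPINB1 had 0.39, none past the threshold. Those that rose, TIMP2 with 1.86 and SERPINH1 with 1.07, act on matrix metalloproteinases and as a collagen chaperone, respectively, and not on cathepsins. Without any of initial pools 2 or 4 or steatosis pools 1 or 4, and with scaling by the median ratio or upper quartile, 1 of the 2 passed. Without initial pool 1 or 3 the count of this list was 3.

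**Figure D5:**
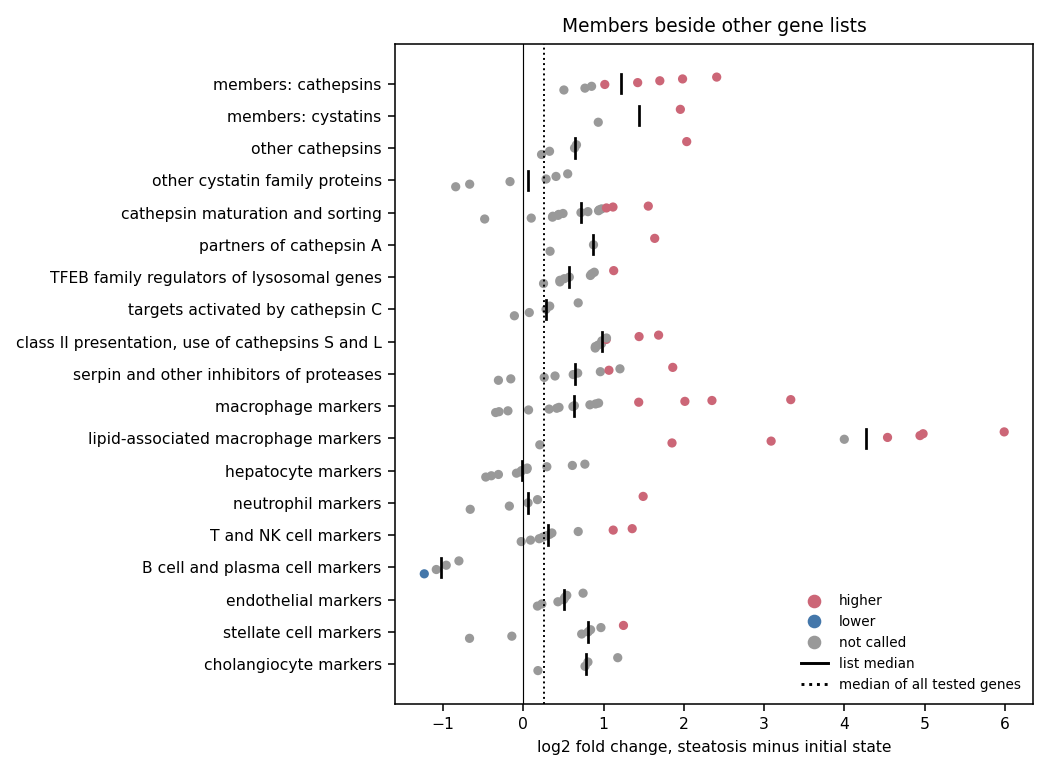
Log2 fold change of steatosis over initial state for each tested gene (points, coloured by whether they were higher, lower or not called) of the lists of members, related genes and cell type markers, with a bar at each list's median and a dotted line at the median of all tested genes. Medians are 1.22 for the 8 cathepsins, 1.45 for the 2 cystatins, 0.72 for maturation and sorting, 4.27 for lipid-associated macrophage markers and -0.02 for hepatocyte markers.

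Macrophage markers gave a mixed picture. Of 16 of them 4 rose (TYROBP, CD68, MSR1 and MARCO, named because they passed) and 0 fell, with a median log2 fold change of 0.63. Their summed FPKM was 1162 to 1522 in the initial pools and 1678 to 1878 in the steatosis pools, and none was at 0 in any pool. The most abundant, C1QB, C1QC, C1QA and CD14, had log2 fold changes of 0.64, 0.44, 0.07 and -0.19, none past both limits. CD5L, a scavenger receptor family protein of Kupffer cells named after its values were seen, was at 190.1 ± 36.7 and 148 ± 10.4 FPKM, with every steatosis pool below every initial pool and a log2 fold change of -0.34 (limma adjusted p = 0.0709). Of 8 markers of lipid-associated macrophages 6 rose and 0 fell, among them GPNMB and LGALS3 with log2 fold changes of 4.94 and 5.99. Summed FPKM of the 8 was 4352 to 5664 and 6476 to 7012, with 1 of them listed at 0 in at least 1 initial pool. Most of that sum was APOE, at 4761 ± 624 and 5464 ± 359 FPKM. APOE was not called, with a log2 fold change of 0.21 (limma adjusted p = 0.240). The part of macrophages in the rise of the cathepsins and of CSTB was not tested.

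Levels relative to 2 of these markers were read within pools. Relative to TYROBP, a signalling adaptor of myeloid cells at 42.8 ± 4.06 and 116 ± 4.66 FPKM, CTSD and CSTB were higher in steatosis without overlap, against 0.926% of all tested genes, CTSB, CTSC and CST3 were lower, against 79.7%, and 5 overlapped. Relative to CD68 (gene 103158530), a lysosomal glycoprotein of macrophages at 11.3 ± 2.88 and 47.0 ± 16.5 FPKM, 0 of the 10 genes were higher and 4 were lower (CTSA, CTSB, CTSC and CST3), against 0.304% and 82.6% of all tested genes, and 6 overlapped. This CD68 entry was at 36.8, 63.8, 58.1 and 29.3 FPKM in steatosis pools 1 to 4, with pool 2 the highest and pool 4 the lowest. Among its selected transcripts the paper has another gene entry for CD68, with a larger reported rise. Ratios to that entry were not computed, so the counts hold only for the entry used here.

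Liver identity and other cell types were checked with marker lists. Hepatocyte markers were the most abundant, with a summed FPKM of 58723 to 91373 in the initial pools and 53210 to 66343 in the steatosis pools, none at 0. Of their 11 entries, with TF under separate gene records, 0 rose or fell. Other lists gave 1 of 5 neutrophil, 2 of 10 T and NK cell, 0 of 7 endothelial, 1 of 7 stellate cell and 0 of 4 cholangiocyte markers higher and 0 lower, and 0 of 4 B and plasma cell markers higher and 1 lower. The last count was 2 without initial pool 1 and 0 without any other library. With scaling by the median ratio JCHAIN and MS4A1 were both lower as well. Transcripts of other tissues were found in the initial pools. The 7 skeletal muscle markers summed to 2777, 0.82, 8.37 and 20.8 FPKM in initial pools 1 to 4 and the 6 stomach markers to 2210, 18.6, 39.5 and 0.22 FPKM, against at most 0.35 and 0.38 FPKM in the steatosis pools. Pool 1 held by far the most, with smaller sums in the others. Pool 1 was also the highest initial pool for DES of the stellate cell list, at 71.55 FPKM against 3.23 to 7.39 in the others. EPCAM and KRT19 of the cholangiocyte list were highest there too, while CFTR and SOX9 were not. Without initial pool 1, 2, 3 or 4, the 10 genes gave 6, 6, 7 or 5 higher and 0 lower.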

How the data were processed

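Reads of 100 bp from poly-A RNA were cleaned by the authors and mapped to Sus scrofa 11.1 with HISAT2 (version 2.0.4 in the submitters' processing notes). Transcripts were assembled with StringTie, new coding transcripts were added to the reference, and expression was estimated with Bowtie2 (2.2.5) and RSEM (1.2.12). The values deposited by the authors are FPKM per gene, normalized for transcript length and mapped fragments, with no scaling between libraries stated. The authors also deposited comparisons of single pairs of libraries (log2 fold changes, p-values and FDR), which were not used. The summed FPKM per library was between 511863 and 545731.

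Genes that reached 0.3 FPKM in 4 or more of the 8 pools were compared on log2(FPKM + 0.1), a scale that understates changes of low genes. The model was fitted with limma 3.58.1 in R 4.3.3 with group alone and a trend of variance on mean, and p-values were adjusted by Benjamini-Hochberg over all 13175 genes. A gene was called where its adjusted p was below 0.01 and its log2 fold change exceeded 1 in size. Descriptive tables and exact tests used scipy 1.17.1, pandas 2.3.3 and numpy 2.4.6 under Python 3.11.15, and plots used matplotlib 3.10.9. The fit was tested on simulated data. P-values weigh the difference between groups against the spread between pools within a group. Pairing by pool number enters only the block fit.

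Pool numbers were taken from the labels. That they pair the pools is not stated, but deviations from the group means correlated at 0.16, 0.35, 0.32 and 0.25 between pools of the same number, and at -0.20 to 0.03 between others. The block was an alternative, besides other scalings, filters, pseudocount and thresholds and leaving out each library in turn.

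The members and lists were chosen with earlier results of these data known. Named are the 10 members, all measured genes of both families, up to 4 genes of highest mean FPKM in each further list as far as they bear on the members, and the 5 nearest profiles. Other genes named were chosen after their values were seen, as the text says. Coordinates are from RefSeq, assembly Sscrofa11.1. Protein and promoter sequences were not used here.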

Additional observations from a re-analysis of the deposited data

Results flagged for a closer look

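A single pool stood apart from the other 3 of its group in 3 of 42 groups examined (the 21 measured genes of the cathepsin and cystatin families in 2 groups each), by Dixon's criterion, which flags about 1 group in 20 by chance. CTSB was at 377.01 FPKM in initial pool 2, below the 448 to 459 FPKM of the other initial pools. CTSC was at 55.14 FPKM in initial pool 4, above the 32.6 to 33.6 FPKM of the others. AHSG, the plasma protein fetuin-A, was at 3595.5 FPKM in initial pool 3, above the 2120 to 2302 FPKM of the others.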

How the results depend on the processing

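Estimates of all 10 genes were above 0 under every alternative run. Of all tested genes 78.7% had an estimate above 0 in the main fit, and this share was not computed for the alternatives. Over all tested genes the median went from 0.25 to -0.01 (log2 fold change) under scaling by the median ratio. The 6 genes higher became 3 (CTSD, CTSH and CSTB) under the treat test of limma, with adjusted p of 0.0165 for CTSZ and 0.308 for CTSS. The count was 5 to 7 with a library left out, 7 (with CST3) without initial pool 3 and 5 (without CTSA) without initial pool 4, steatosis pool 2 or steatosis pool 3, and the genes lower were 0 in each. It was also 5, without CTSA, under scaling by the upper quartile or median ratio or a pseudocount of 1. The pool number as a block changed no call of the 10 genes, with 6 higher and 0 lower. The adjusted p of CTSL went up to 0.0171 with a library left out, and was 0.0489 and 0.0720 under scaling by the upper quartile and the median ratio. Over all genes, 792 higher and 44 lower became 439 and 73 (upper quartile), 411 and 83 (median ratio), 395 and 39 (pseudocount of 1), 418 and 14 (adjusted p under 0.001) and 68 and 1 (treat test), and the lower genes were 28 and 26 without steatosis pools 2 and 4. Without the number of reads, the precision of each value rests on 4 pools per group.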

Other observations

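The genes whose centred profile over the 8 pools was nearest to the mean profile of the 10 members were ABHD12, a lysophosphatidylserine lipase, NKG7, a granule protein of cytotoxic lymphocytes, MERTK, a receptor for uptake of dying cells, RGS4, a regulator of G protein signalling, and RPS6KA1, a kinase. Their root mean square differences from that profile were 0.0801, 0.0897, 0.0936, 0.0947 and 0.106 on the log2 scale, against a median of 0.608 over 12107 genes compared. CTSS, the nearest of the members themselves, was at 0.127, and CTSD, the farthest, at 0.542. NKG7 was at 11.2, 13.5, 15.1 and 14.3 FPKM before the diet and at 34.8, 38.0, 34.3 and 31.4 FPKM after it, with a log2 fold change of 1.36 (limma adjusted p = 6.15e-05). With a pseudocount of 1 in place of 0.1, RGS4, whose mean was 1.25 FPKM in the initial state, moved to 0.233, so its place depends on the pseudocount.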
